A study of Homo sapiens with 4 samples.

Results

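LINC-named genes are genes that the annotation names LINC followed by a number, the neutral name given to a long intergenic non-coding RNA, a transcript of a gene lying between protein-coding genes and not known to encode a protein when it was named. The members described here were chosen on the measured values: a mean of at least 0.5 FPKM over the cell lines (fragments per kilobase of transcript and per total of mapped fragments, a level per length) and a status of OK in both lines. Of the 553 LINC-named genes in the table, 77 (13.9%) met this rule. A further 239 were listed at 0 in both lines and 237 lay above 0 with a mean under 0.5 FPKM. By the same rule, 13911 of all 57815 genes (24.1%) were kept, and these are called the tested genes. The table held 1 FPKM per gene and cell line, with a lower and an upper bound, which are given below in square brackets after the FPKM.

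The values came from RNA-Seq of total RNA from cultured, untreated cells of the triple-negative breast cancer line MDA-MB-231 and of LM2-4175, a lung-metastatic line derived from it, with 2 libraries per line and 4 in all. Both were grown in the same medium, so the comparison addressed how far the lung-metastatic line differed from its parent, each group being 1 cell line. The labels did not say that the libraries came from separate cultures, and the authors combined the libraries of a line in 1 value. No value per library was therefore examined here, and no p-value or SD could be given. Markers of the lines were mixed. VIM, the mesenchymal filament vimentin, stood at 1355 and 1768 FPKM, SPARC at 13.6 and 231.7 FPKM and fibronectin (FN1) at 313.7 and 117.3 FPKM in MDA-MB-231 and LM2-4175, in that order. Among markers listed as low in such lines, the hormone receptors ESR1 (0.0331 and 0.0186 FPKM) and PGR (0.0124 and 0.00438 FPKM) were near 0, but the keratins KRT8 (625.7 and 180.2 FPKM) and KRT18 (448.5 and 181.1 FPKM) were high, and ERBB2 (34.95 and 22.8 FPKM) and EPCAM (12.3 and 4.93 FPKM) were expressed. Of the white blood cell markers, CD14 had 1.17 and 1.75 FPKM, PTPRC had 0.0767 and 0.0263 FPKM and CD3E was listed at 0, and their part in the results below was not tested.

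Long non-coding RNAs are transcribed by RNA polymerase II, often capped, spliced and polyadenylated like messenger RNAs, and many are short-lived and low in level. Some act beside the gene they come from, others bind proteins or microRNAs elsewhere in the cell, and for many no role is known. Some genes first given a LINC name were later found to encode small proteins, and some transcripts are the precursors of microRNAs or of circular RNAs. Several have been studied in cancer cells, where their levels often differ between cell types.

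LINC-named genes were low in level but spanned a wide range. Their median was 1.83 FPKM in MDA-MB-231 and 1.96 FPKM in LM2-4175, against 11.9 and 11.6 FPKM for all tested genes. The 983 tested long non-coding RNA genes without a LINC name had medians of 1.41 and 1.51 FPKM. By mean level, 24 members lay between 0.5 and 1 FPKM, 40 between 1 and 10 FPKM and 13 at 10 FPKM or more. At least 0.5 FPKM was reached by 67 members in both lines, by 7 only in LM2-4175 and by 3 only in MDA-MB-231. Members just inside the rule were LINC00862 (mean 0.532 FPKM), LINC00526 (0.551 FPKM) and LINC00957 (0.582 FPKM), and just outside lay LINC00240 (0.495 FPKM), LINC00944 (0.494 FPKM) and LINC00473 (0.491 FPKM). The upper bound lay a median of 49.1% above the FPKM in MDA-MB-231 and 46.7% above it in LM2-4175, and in 14 members the lower bound was 0 in both lines.

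A pair of RNAs made up much of the LINC-named signal. LINC00152 (ENSG00000222041, now CYTOR), a transcript studied for its effect on growth and motility of cancer cells, had 315.7 FPKM [234.1, 397.4] in the parental MDA-MB-231 and 185.7 FPKM [135.3, 236.2] in LM2-4175. It lies on chromosome 2 at chr2:87754300-87936259 of GRCh37, on the plus strand. LINC00657 (now NORAD), which binds Pumilio proteins and is known for its part in keeping chromosomes stable, stood at 105.8 FPKM [81.7, 130] and 115.5 FPKM [89.0, 142]. LINC00152 alone held 37.3% of the members' summed FPKM in MDA-MB-231 and 26.0% in LM2-4175. With LINC00657 added, the shares were 49.8% and 42.2%. Its point estimate was lower in LM2-4175 by 0.76 on the log2 scale of FPKM + 1, but the bounds overlapped and it was not called. The near-identical copy MIR4435-1HG on the same chromosome had 226 FPKM [140, 312] and 124 FPKM [71.0, 177], and reads of LINC00152 and its copy cannot be fully told apart.

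Below these came 3 genes that encode small proteins and 1 further gene annotated as a long non-coding RNA. LINC00493 (now SMIM26, a small mitochondrial protein) had 59.8 FPKM in MDA-MB-231 and 56.6 FPKM in LM2-4175. LINC00998 (now SMIM30, a small membrane protein) had 34.2 FPKM [25.7, 42.6] and 53.4 FPKM [40.8, 66.0], and LINC00116 (now MTLN, mitoregulin, a peptide of the inner mitochondrial membrane) had 39.5 FPKM [27.7, 51.4] and 27.5 FPKM [19.01, 36.1]. The log2 changes of LINC00998 and LINC00116 were 0.63 and -0.51, in opposite directions and with overlapping bounds in both. LINC00467 had 30.4 and 29.2 FPKM. For LINC00467 (-0.06) and LINC00493 (-0.08) the sign of the log2 change turned positive under other scalings. The 6 highest members together held 69.2% of the members' FPKM in MDA-MB-231 and 65.5% in LM2-4175. Of the 76 pairs of neighbours in the order of levels, the bounds were apart only for LINC00152 over LINC00657 and LINC00657 over LINC00493 in MDA-MB-231, and only for the latter in LM2-4175. The rest of the order is therefore not resolved by the bounds.

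**Figure D1:**
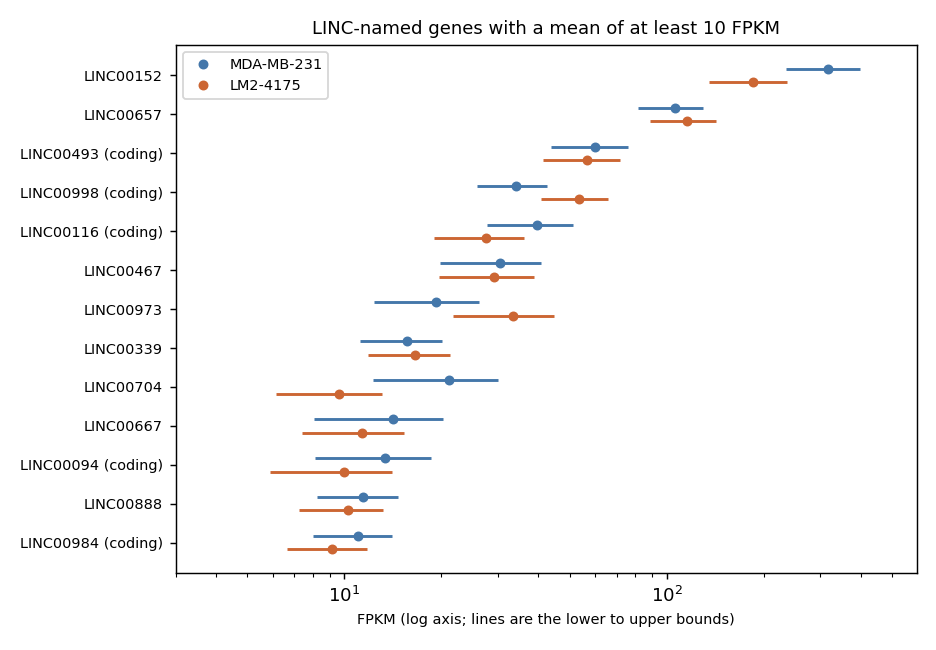
FPKM (log axis) of the 13 LINC-named genes with a mean of at least 10 FPKM, in MDA-MB-231 and LM2-4175, with points for the FPKM and lines for the lower to upper bounds. LINC00152 and LINC00657 sit above 100 FPKM in both lines, the 5 genes marked as coding have a protein-coding entry in both annotations used, and within each gene the bounds of the lines overlap.

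The members with the highest levels included most of those now known to encode proteins. GENCODE and RefSeq both give 6 members as protein-coding, of which 5 were among the 13 members at 10 FPKM or more and 1 was among the other 64. They held 19.1% of the members' FPKM in MDA-MB-231 and 22.3% in LM2-4175. Besides the 3 named above they were LINC00094 (now BRD3OS) with 13.3 and 9.99 FPKM, LINC00984 (now INAFM2) with 11.02 and 9.19 FPKM, and LINC00085 (now SPACA6, a sperm membrane protein needed for fertilization) with 3.74 and 2.33 FPKM. All 6 had overlapping bounds between the lines, and the bounds were apart in 9.39% of all tested genes. Of the list of 10 LINC-named genes known to encode small proteins, 3 were members. None of these was called, beside 9.27% of all tested genes, and so few genes cannot show a difference from that share. Their median log2 change was -0.08, beside -0.04 over all tested genes.

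Most LINC-named genes were not called as changed between the lines. With bounds this wide, a missing call does not show equal levels. The median absolute log2 change was 0.34 for members, beside 0.28 over all tested genes. A gene was called where the change on log2(FPKM + 1) was at least 1.5-fold and the bounds of the lines did not overlap. The comparison is of pooled libraries and not of replicates. The added 1 shrinks changes at low levels, so that a larger ratio of FPKM was needed there. By this rule 5 members rose in LM2-4175 and 1 fell, which is 7.79% of the 77, where the background over all tested genes was 9.27% (4.67% higher and 4.61% lower). The members' share was thus close to that of all genes. Among the other long non-coding RNA genes 42 rose and 31 fell (7.43%). By point estimate 40 members were higher in LM2-4175 and 37 lower, with a median log2 change of 0.03 (quartiles -0.31 and 0.36). Across the 77 members, log2(FPKM + 1) of the lines correlated with Pearson's r = 0.924 and the FPKM with Spearman's rho = 0.764. Over the 13911 tested genes these were 0.944 and 0.943; genes are not replicates, and the range of levels differs between the sets.

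**Figure D2:**
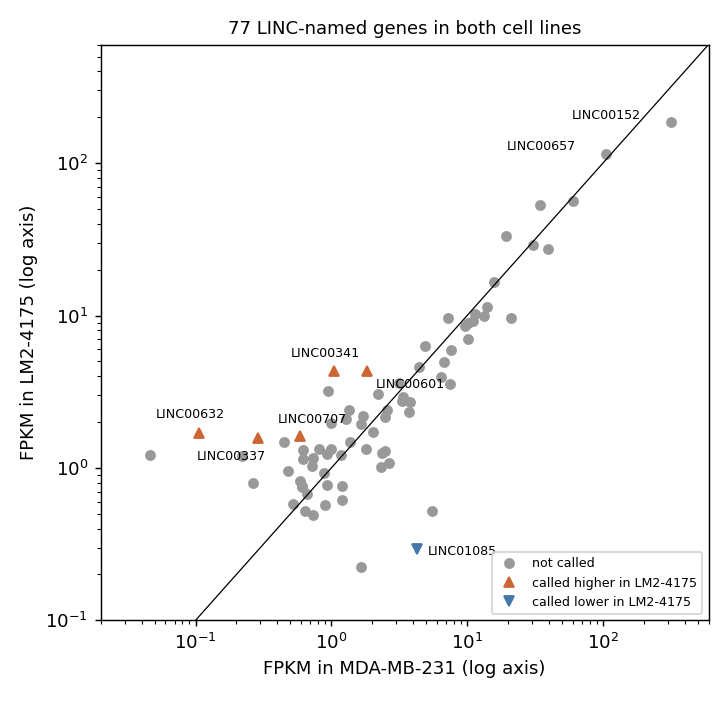
FPKM in LM2-4175 against FPKM in MDA-MB-231 (log axes) for the 77 LINC-named genes, with triangles for the 6 called genes and a line where both are equal. Most points lie along the line above 3 FPKM, and the called genes are all at a mean under 5 FPKM.

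LINC00601 and LINC01085 were the called genes whose exons overlap no other annotated gene. LINC00601 (ENSG00000235180), a gene at chr10:128102438-128110448 on the minus strand of GRCh37, went from 1.83 FPKM [1.06, 2.60] in MDA-MB-231 to 4.31 FPKM [2.80, 5.81] in LM2-4175, a log2 change of 0.91. LINC01085 (ENSG00000248698), at chr4:14113592-14141676 on the plus strand and annotated as a transcribed processed pseudogene, stood at 4.28 FPKM [2.39, 6.16] and 0.291 FPKM [0.0657, 0.517]. Its log2 change of -2.03 was the only called decrease, and it went from place 25 of 77 in the order of levels in MDA-MB-231 to place 76 in LM2-4175.

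LINC00632 (ENSG00000203930) rose from a level near 0. It lies at chrX:139791727-139875380 on the plus strand of GRCh37 and is known as the precursor of the circular RNA CDR1-AS, which binds the microRNA miR-7. It had 0.105 FPKM in MDA-MB-231 [0, 0.295] and 1.70 FPKM in LM2-4175 [0.743, 2.65], a log2 change of 1.29. CDR1, the gene on the opposite strand that covers 2.73% of its exon bases, had 0.818 FPKM [0.426, 1.21] in LM2-4175 and a listed 0 in the parental line. Counting is not stated to use strand, so reads of LINC00632, of the circular RNA and of CDR1 cannot be told apart in this overlap. The 3 other members on the X chromosome also had positive point estimates without being called. These were LINC00893 (0.449 and 1.48 FPKM), LINC00894 (0.991 and 1.34 FPKM) and LINC00630 (3.14 and 3.59 FPKM), chosen for naming by their chromosome after their values were seen. Of the 390 tested protein-coding genes on the X chromosome, 215 had a higher point estimate in LM2-4175. Of these 390 genes 20% were called in either direction, beside 9.47% of all tested protein-coding genes.

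The 3 remaining increases shared exon bases with another gene. LINC00341 had the largest called increase on log2(FPKM + 1), a change of 1.37 from 1.05 FPKM [0.652, 1.45] to 4.31 FPKM [3.07, 5.56]. By the ratio of FPKM, LINC00632 (16.1) and LINC00337 (5.46) rose more than LINC00341 (4.10). The LINC00341 row covers chr14:95873606-95876427 of GRCh37, and all 2822 bases of it lie in exons of SYNE3 in the newer annotation. SYNE3 encodes nesprin-3, which links the nucleus to intermediate filaments, and its own row had 5.18 and 6.59 FPKM. The rise of LINC00341 can therefore not be told apart from a change in the end of SYNE3 transcripts. LINC00337 (ENSG00000225077, now ICMT-DT) starts beside ICMT, the methyltransferase of prenylated proteins, at chr1:6294752-6299504, and shares 3.77% of its exon bases with it on the opposite strand. It had 0.288 FPKM [0.0940, 0.483] in MDA-MB-231 and 1.57 FPKM [0.894, 2.25] in LM2-4175, a log2 change of 1.00. ICMT itself had 59.5 and 70.1 FPKM with overlapping bounds, a log2 change of 0.23.

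LINC00707 (ENSG00000238266), at chr10:6821511-6884868 on the plus strand, was the called member among those studied in cancer cells, where it has been described as promoting growth. It had 0.585 FPKM [0.340, 0.830] in MDA-MB-231 and 1.62 FPKM [1.08, 2.16] in LM2-4175, a log2 change of 0.72. An unnamed gene on the same strand covers 14.0% of its exon bases.

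Another 14 members passed 1.5-fold with overlapping bounds, 6 of them with higher and 8 with lower point estimates in LM2-4175. The fold alone was thus passed by 26.0% of members, beside 22.1% of all tested genes. LINC00460, an RNA studied for its part in invasion, had 0.941 FPKM [0.267, 1.62] and 3.18 FPKM [1.55, 4.81], so that its bounds overlapped narrowly. LINC01021 (now PURPL, a p53 target) had 0.0460 FPKM [0, 0.216] and 1.22 FPKM [0.208, 2.24], and it too was kept from a call by a narrow overlap. LINC00704 (now MANCR), which has been studied in aggressive breast cancer, had 21.1 FPKM [12.2, 30.0] and 9.60 FPKM [6.12, 13.1]. LINC01088 had 1.66 FPKM [0.542, 2.77] and 0.225 FPKM [0, 0.561]. LINC00704 and LINC01088 were therefore lower by point estimate, by -1.06 and -1.12 on the log2 scale, without being called, although quantile normalization brought LINC01088 to a call. The naming of LINC01021, LINC00704 and LINC01088 was decided after their values were seen.

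**Figure D3:**
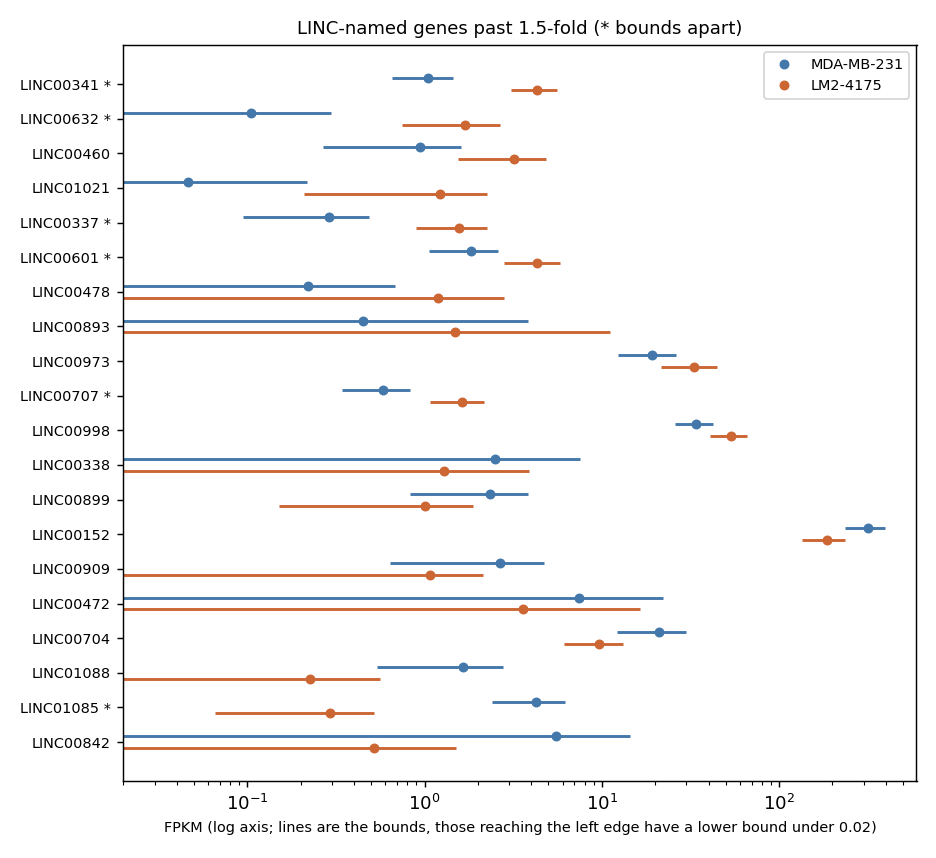
FPKM (log axis) in MDA-MB-231 and LM2-4175 of the 20 LINC-named genes past 1.5-fold on log2(FPKM + 1), ordered from the largest increase to the largest decrease in LM2-4175, with points for the FPKM and lines for the bounds. The bounds are apart in the 6 genes with an asterisk, and 8 of the 20 have a lower bound of 0 in at least 1 line.

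Members studied in cancer cells did not move together. Of a list of 25 such genes 16 were members, of which 8 had a higher and 8 a lower point estimate in LM2-4175, with a median log2 change of -0.00 beside -0.04 over all tested genes. LINC00707 rose and none fell, so that 6.25% were called, beside 9.27% of all tested genes. The fold alone was passed by 8 of the 16, 4 in each direction (50%), beside 22.1% of all tested genes. LINC00973 had 19.3 FPKM [12.3, 26.2] in MDA-MB-231 and 33.3 FPKM [21.7, 44.8] in LM2-4175, a log2 change of 0.76 that was not called. LINC00261, which lies beside FOXA2, had 2.20 FPKM [1.53, 2.87] and 3.06 FPKM [2.19, 3.93]. LINC00941 with 9.72 and 8.49 FPKM, LINC00511 with 10.2 and 8.87 FPKM and LINC00963 with 4.40 and 4.59 FPKM stood near the middle of the changes. So did LINC00662 with 4.93 and 6.35 FPKM and LINC00665 with 3.33 and 2.74 FPKM. Bounds that reached 0 in both lines were those of LINC00842, with 5.51 FPKM [0, 14.5] and 0.518 FPKM [0, 1.51], LINC00472, with 7.42 FPKM [0, 22.2] and 3.57 FPKM [0, 16.4], and LINC00338, with 2.48 FPKM [0, 7.57] and 1.29 FPKM [0, 3.87]. The same held for LINC00478, whose values follow. No direction is resolved by such bounds.

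Members that hold microRNA genes included a pair with the same microRNA families. On their own strand 6 members hold a microRNA gene, and LINC00478 (now MIR99AHG) on chromosome 21 and LINC00085 on chromosome 19 each hold a cluster of 3. The guide strands of both clusters are shown because they form 3 pairs with an identical seed, the bases 2 to 8 that pair with target messages, given in capitals (RefSeq, positions in GRCh38.p14):
hsa-miR-99a-5p, chr21:16539101-16539122: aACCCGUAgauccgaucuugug
hsa-miR-99b-5p, chr19:51692618-51692639: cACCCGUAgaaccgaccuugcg
hsa-let-7c-5p, chr21:16539838-16539859: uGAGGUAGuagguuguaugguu
hsa-let-7e-5p, chr19:51692793-51692814: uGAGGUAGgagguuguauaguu
hsa-miR-125b-5p, chr21:16590253-16590274: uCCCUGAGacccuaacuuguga
hsa-miR-125a-5p, chr19:51693268-51693291: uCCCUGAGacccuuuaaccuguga
The first of each pair belongs to LINC00478 and the other to LINC00085. LINC00478 had 0.219 FPKM [0, 0.679] in MDA-MB-231 and 1.19 FPKM [0, 2.81] in LM2-4175, a log2 change of 0.85. LINC00085 had 3.74 FPKM [1.88, 5.59] and 2.33 FPKM [0.976, 3.69], a log2 change of -0.51. Their point estimates thus lay in opposite directions, with bounds that overlapped between the lines for both. LINC00472 holds the genes of miR-30a and miR-30c, which share the seed GUAAACA. The 11 microRNA rows of these hosts were all listed at 0 in both lines, so the table holds no level of the microRNAs themselves.

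The level of a LINC-named gene and that of its nearest protein-coding gene changed in the same direction in 55 of 77 members (71.4%). For protein-coding genes and their own nearest protein-coding gene this was 59.9% of 12075 pairs. Pearson's r between both log2 changes was 0.39 and Spearman's rho 0.45 over the 77 members, given as a description, since neighbours can share reads and a chromosome region. Among the 26 members that overlapped neither the exons of another gene nor their neighbour, the direction was shared in 15. This share was not above the 59.9% of the protein-coding pairs, from which overlapping pairs were not removed. Of the neighbours of the called members, LDOC1, 330 kb from LINC00632, rose from 8.72 FPKM [6.08, 11.4] to 26.5 FPKM [19.7, 33.3], and C10orf90, 3.12 kb from LINC00601, rose from 0.247 FPKM [0.0511, 0.444] to 1.87 FPKM [1.13, 2.62]. The other 4 were not called. Calls were made in 9.47% of all tested protein-coding genes and in 20% of those on the X chromosome, where LDOC1 lies. PFKFB3, which makes the activator of glycolysis fructose 2,6-bisphosphate and lies 525 kb from LINC00707, had 20.4 and 28.3 FPKM. BOD1L1, 484 kb from LINC01085, had 15.9 and 16.5 FPKM, while LINC01085 fell.

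Some neighbours of uncalled members were called as well, and these are named after their values were seen. Of all tested protein-coding genes without a LINC name 9.47% were called. FOXA2, the transcription factor gene beside LINC00261, rose from 5.03 FPKM [3.62, 6.44] to 14.5 FPKM [10.95, 18.02]. GPR85, the nearest coding gene of LINC00998, rose from 0.0750 FPKM [0, 0.213] to 1.595 FPKM [1.00, 2.19]. The point estimates of LINC00261 and LINC00998 lay in the same direction, with log2 changes of 0.34 and 0.63 against 1.36 and 1.27 for their neighbours. AGAP6, beside LINC00843, also rose, with log2 changes of 0.77 for AGAP6 and 0.36 for LINC00843. In contrast, FPR1, the nearest coding gene of LINC00085, fell from 4.34 FPKM [2.93, 5.75] to 0.215 FPKM [0.0097, 0.420], a log2 change of -2.14. RALA, the nearest coding gene of LINC00265, fell with a log2 change of -0.78, while that of LINC00265 was 0.04.

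**Figure D4:**
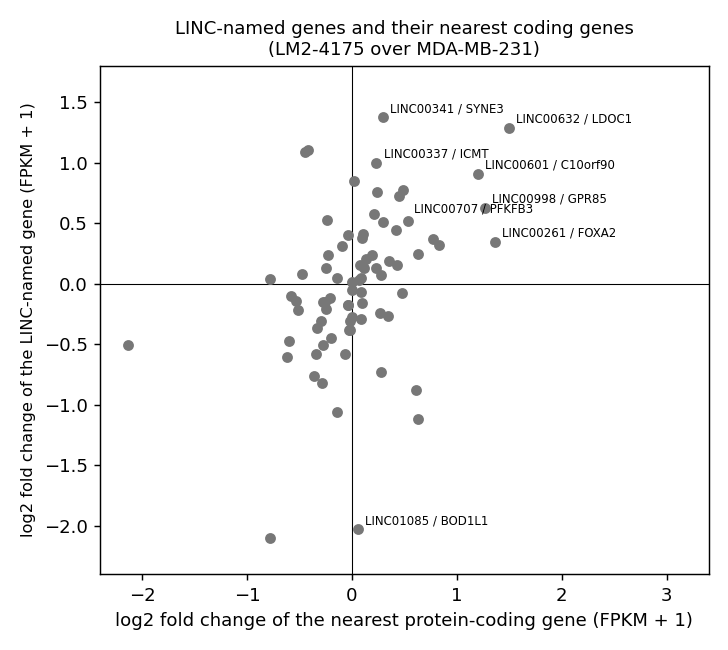
Log2 fold change (FPKM + 1, LM2-4175 over MDA-MB-231) of each of the 77 LINC-named genes against that of its nearest tested protein-coding gene. Both changes have the same sign for 55 points, and LINC01085 lies far below 0 beside a neighbour near 0.

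The promoters of the members were searched for short motifs. RefSeq gave a promoter, from 250 bases before to 50 bases after the start of the gene, for 64 of the 77 members, and the first start was used where it gave several. Letters of the AP-1 motif (TGANTCA, on both strands), bound by FOS and JUN proteins, were found in 11 of 64 promoters (17.2%), in 7.72% of all 27305 promoters and in 10.5% of 11462 promoters of long non-coding RNA genes. TATAAA was found in 6.25% of the members' promoters and 12.02% of all, CCAAT in 39.1% and 35.7%, and the cyclic AMP response element TGACGTCA in 3.12% and 1.97%. The NF-kB motif was found in none of the 64 and in 0.586% of all. A match of letters is a description and not a binding site. The promoters compared with were those of RefSeq genes whether or not expressed in these lines, while members were chosen by their level. The shares and the GC content therefore do not compare like with like. The median GC content was 60% for members, 58.3% for all and 50% for long non-coding RNA genes.

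The promoters below are examples, 3 of called members (LINC00601, LINC01085 and LINC00632) and 3 of other members past 1.5-fold with 2 AP-1 matches each (LINC00460, LINC00152 and LINC00704), with the matches to the AP-1, TATAAA and CCAAT letters on either strand in capitals (GRCh38.p14, written along the strand of the gene):
LINC00601, chr10:126421830-126422129, minus strand: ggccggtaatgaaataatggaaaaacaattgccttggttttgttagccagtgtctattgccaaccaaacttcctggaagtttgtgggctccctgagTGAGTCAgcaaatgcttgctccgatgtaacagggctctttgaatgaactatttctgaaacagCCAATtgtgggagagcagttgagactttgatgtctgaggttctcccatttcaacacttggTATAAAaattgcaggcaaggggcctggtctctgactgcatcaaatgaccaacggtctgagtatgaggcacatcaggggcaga
LINC00460, chr13:106376314-106376613, plus strand: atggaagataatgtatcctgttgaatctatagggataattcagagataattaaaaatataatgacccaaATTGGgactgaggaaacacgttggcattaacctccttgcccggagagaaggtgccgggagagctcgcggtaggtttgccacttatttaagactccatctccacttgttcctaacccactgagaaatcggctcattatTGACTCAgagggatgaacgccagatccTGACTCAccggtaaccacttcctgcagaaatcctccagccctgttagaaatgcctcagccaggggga
LINC00152, chr2:87455177-87455476, plus strand: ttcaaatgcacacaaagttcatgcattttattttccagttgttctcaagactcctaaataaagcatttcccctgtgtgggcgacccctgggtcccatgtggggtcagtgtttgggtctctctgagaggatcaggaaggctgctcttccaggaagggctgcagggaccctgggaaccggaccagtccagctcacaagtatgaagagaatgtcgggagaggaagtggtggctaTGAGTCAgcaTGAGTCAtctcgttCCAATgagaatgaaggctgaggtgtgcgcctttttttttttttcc
LINC00704, chr10:4678021-4678320, minus strand: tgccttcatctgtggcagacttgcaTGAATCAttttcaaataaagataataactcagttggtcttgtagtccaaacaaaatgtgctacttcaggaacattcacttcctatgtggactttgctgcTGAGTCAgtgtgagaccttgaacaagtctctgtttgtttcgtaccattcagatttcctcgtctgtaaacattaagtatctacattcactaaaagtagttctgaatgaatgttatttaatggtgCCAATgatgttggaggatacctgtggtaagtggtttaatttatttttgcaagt
LINC01085, chr4:14111718-14112017, plus strand: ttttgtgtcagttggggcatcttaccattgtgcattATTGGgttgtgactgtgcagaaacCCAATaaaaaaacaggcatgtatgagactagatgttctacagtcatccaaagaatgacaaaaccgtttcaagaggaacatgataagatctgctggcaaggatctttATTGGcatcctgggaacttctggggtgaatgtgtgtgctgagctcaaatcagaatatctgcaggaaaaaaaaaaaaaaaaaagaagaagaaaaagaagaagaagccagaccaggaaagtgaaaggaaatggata
LINC00632, chrX:140709509-140709808, plus strand: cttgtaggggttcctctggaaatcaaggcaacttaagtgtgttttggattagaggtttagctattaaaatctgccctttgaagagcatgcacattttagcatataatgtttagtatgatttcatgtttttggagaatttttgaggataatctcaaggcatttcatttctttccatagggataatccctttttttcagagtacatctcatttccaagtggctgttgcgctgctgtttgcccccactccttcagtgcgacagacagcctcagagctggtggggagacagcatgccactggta
LINC00601 has 1 match each to the AP-1, TATAAA and CCAAT letters. LINC00460, LINC00152 and LINC00704 have 2 AP-1 matches each, and in LINC00152 the matches stand 3 bases apart. LINC01085 has 3 CCAAT matches and LINC00632, shown from the first of its 3 starts, has no match. Of the 11 members with AP-1 letters 7 had a higher point estimate in LM2-4175, beside 6326 of the 13911 tested genes. Of these 11 members 1, LINC00601, was called, and 4 of the other 53 were called, beside 9.27% of all tested genes. Among the 4 was LINC00341, to which RefSeq gives the promoter of SYNE3. The median log2 change was 0.08 with the letters and -0.07 without them, beside -0.04 over all tested genes. These values are a description, and a link between the letters and the changes was not tested.

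Genes on a list of RNA surveillance were not called in either direction. Most belong to the nuclear exosome, which degrades many unstable non-coding RNAs, or to its cofactors. The list also held the Integrator cleavage subunits CPSF3L and INTS9, the cap-binding genes NCBP1 and NCBP2, SRRT and XRN2. Of the 29 genes on the list all were tested and none was called, beside 9.27% of all tested genes. Point estimates were higher in LM2-4175 for 10 and lower for 19, beside 6326 and 7585 of all tested genes, and the median log2 change was -0.11, beside -0.04. The largest point estimates were those of ZCCHC7 (0.60), a subunit of the nuclear polyadenylation complex TRAMP, and of the exosome genes EXOSC2 (-0.45), EXOSC6 (-0.38) and EXOSC10 (-0.26). ZCCHC7 had 8.92 FPKM [6.15, 11.7] in MDA-MB-231 and 14.1 FPKM [10.2, 17.9] in LM2-4175.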

How the data were processed

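RNA-Seq of MDA-MB-231 and LM2-4175 was analysed, with 2 libraries per line. The authors aligned the reads to hg19 (GRCh37) with TopHat2 and deposited FPKM values of GENCODE 19 genes from Cufflinks and Cuffdiff, combined per line, with bounds and a status. Whether library-to-library variation enters the bounds is not given in the sources used here, nor is how libraries were scaled or whether strand was counted. The depth of each library is not in the table, so the precision was read from the bounds. The limma test that had been planned could not be run on 1 value per line. Genes of status OK and mean FPKM of at least 0.5 were tested, changes were taken on log2(FPKM + 1), and genes were called at 1.5-fold with bounds apart. The rule was tested on simulated data whose noise was drawn from the width of the bounds. That simulation therefore cannot show how the rule performs if the bounds leave out part of the variation. The members and lists were chosen with earlier results of these data known.

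Named are the called members, the 6 highest, members of the small-protein and cancer lists, LINC00973, those beside the threshold, up to 4 surveillance genes and the nearest coding genes of called members; the text says where others were added. Positions, types and overlaps came from GENCODE 44 on GRCh37, which held 74 of 77 members by Ensembl ID, and names and sequences from RefSeq, to which 77 were matched. Python 3.11.15, NumPy 2.4.6, pandas 2.3.3 and Matplotlib 3.10.9 were used. Alternatives were other pseudocounts, filters, scalings and thresholds, and the omission of overlapping and of protein-coding members.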

Additional observations from a re-analysis of the deposited data

How the results depend on the processing

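The members called higher in LM2-4175 numbered 3 at a mean of at least 1 FPKM (53 members), 0 at 5 FPKM (22 members), 8 after scaling to the same sum (81 members), 2 at a 2-fold threshold, 11 by the fold alone and 1 without members that overlap another gene (28 members). Those called lower numbered 0 at 5 FPKM, 2 without a filter (314 members), 2 after quantile normalization, which added LINC01088 and, among the increases, LINC00998, and 9 by the fold alone. Of all genes, 9.12% were called at 1 FPKM, 8.03% at 5 FPKM, 5.09% without a filter and 9.13% after quantile normalization, beside 7.55%, 0%, 2.55% and 10.4% of the members. The median log2 change became -0.15 at 1 FPKM, -0.21 at 5 FPKM and 0.16 without overlapping members. Scaling to the same sum added LINC00460, LINC00998 and LINC01021 to the increases, and with it LINC00467 (0.023) and LINC00493 (0.0013) turned positive, as they did after quantile normalization (0.029 and 0.050). On log2(FPKM + 1), LINC00337, LINC00601 and LINC00707 did not reach 2-fold and were not called there. Their ratios of FPKM without the added 1 were 5.46, 2.35 and 2.77. Over all genes the same scaling gave 737 higher and 541 lower calls, a share of 57.7% higher beside 50.3%, a 2-fold threshold 853 calls and the fold alone 3074, beside 1290. Other pseudocounts, centring, the bounds alone and, added after the data were seen, the omission of protein-coding members left 5 higher and 1 lower. No paired analysis was possible because the columns carry no replicate number, and no library could be left out, since the libraries of a line were combined. Levels near 1 FPKM have bounds so wide that even changes past 1.5-fold could go unresolved. An example is LINC00893, with 0.449 and 1.48 FPKM and overlapping bounds.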
